A study of Mus musculus with 18 samples.

Results

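The acyl-CoA thioesterase genes Acot1, Acot2, Acot3, Acot4, Acot5, Acot6, Acot8, Acot9, Acot12 and Acot13 were followed through RNA-seq of mouse liver and liver tumours with and without the microRNA cluster miR-181ab1. The members were the rows with these 10 gene symbols among the 54838 genes of the table, and each symbol occurred once. They were chosen by name and because Acot2 and Acot3 differed between WT and GKO tumours, so the values of that comparison are a description and were not tested. The 18 samples formed 6 groups of 3, all from C57BL/6 mice aged 36 weeks. The untreated normal livers were wild type (WT) or carried the global miR-181ab1 knockout (GKO). The other groups were non-tumour liver and liver tumour of WT and GKO mice that had received diethylnitrosamine (DEN), a carcinogen activated in hepatocytes, as a single intraperitoneal injection of 25 mg/kg at postnatal day 12. GKO mice lack the cluster in every cell type, so a difference by genotype is not assigned to hepatocytes. The mice were male per the study's methods, WT controls were littermates without the deletion, and which tumour came from the same mouse as which non-tumour liver is not given. The study's supplement describes the DEN groups as having as many mice as samples, and for the untreated livers no source used here says whether the samples came from separate mice, where p-values then measure only the spread between these samples.

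Acyl-CoA thioesterases hydrolyse fatty acyl-CoA to free fatty acid and coenzyme A. They stand against the acyl-CoA synthetases, which make the same esters, and so set how much activated fatty acid is left for oxidation or lipid synthesis. Acot1 works in the cytosol, Acot2 in the mitochondrial matrix, and Acot3, Acot4, Acot5 and Acot6 in peroxisomes; these enzymes arose by gene duplication and differ in the chain length they prefer. Acot8 is a peroxisomal enzyme of broad substrate range, Acot9 is mitochondrial, Acot12 hydrolyses acetyl-CoA in the cytosol, and Acot13 is a small thioesterase associated with mitochondria. In rodent liver several of the clustered genes, Acot1 foremost, are induced by fasting and by ligands of the nuclear receptor PPAR alpha, which also drives the fatty acid hydroxylases Cyp4a10 and Cyp4a14.

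Levels are given in TPM, the share of all transcripts on a fixed scale, which is scaled to gene length and can be compared between genes. Whole reads could be recovered from the values, and the libraries held between 11925060 and 20751388 reads on genes with a median of 16973781. Pearson r between samples of a group, on log2(TPM + 1), ran from 0.919 to 0.982; WT tumours 1 and 2 were the closest pair and WT tumour 3 stood furthest from its group, while WT non-tumour 2 was the outlying liver of its group. The Mir181a-1 and Mir181b-1 hairpins had no read in any library except 1 read of Mir181a-1 in GKO tumour 3, so the deletion could not be checked from these libraries. All 6 hepatocyte markers were present in every group, with a summed level of 60208 to 93450 TPM in livers without tumour and 173532 to 207994 TPM in tumours. In tissue, fewer cells of a type and less RNA per cell cannot be told apart.

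Acot1 to Acot6 lay side by side on the plus strand within 123.489 kb of chromosome 12 (GRCm38, GENCODE release M21). In the direction of transcription the order was Acot2 (chr12:83987861-83993873), Acot1 (chr12:84009490-84018371), Acot4 (chr12:84038379-84048601), Acot3 (chr12:84052144-84060402), Acot5 (chr12:84069325-84076020) and Acot6 (chr12:84100654-84111349). Acot8 lay on chromosome 2, Acot9 on X, and Acot12 and Acot13 on chromosome 13. The coding sequences of Acot1 and Acot2 were 95.5% identical over 1239 aligned bases, against 84.0% for Acot1 and Acot3 and 74.8% for Acot1 and Acot4. Of all 100-base stretches of their transcripts, 12.4% for Acot1, 17.1% for Acot2 and 4.27% for Acot3 also occurred in another member. Reads from those stretches cannot be assigned to a single gene, so levels of Acot1 and Acot2 are also given after adding the 2 genes. Acot3 shared 11.5% of its exonic bases with the same-strand gene Gm49366, which had no read in any library. It also overlapped the antisense gene 4732463B04Rik over 9.08%, as did Acot4 over 9.21%, while Acot8 overlapped Snx21 over 12.3% and Acot12 overlapped 4833422C13Rik over 4.52% on the opposite strand. Strand use in counting was not given in the sources used here.

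The deleted cluster encodes miR-181a-5p and miR-181b-5p. Their mature sequences are shown because the seed, bases 2 to 8 in capitals, is what pairs with target transcripts (RefSeq, GRCm38.p6, chromosome 1, plus strand).
miR-181a-5p: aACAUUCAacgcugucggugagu
miR-181b-5p: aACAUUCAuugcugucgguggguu
Both carried the same seed. The letters TGAATGT, its complement, were looked for on the sense strand of the longest annotated 3′ UTR of each gene. They were in 0 of the 10 members and in 2128 of the 11592 genes that averaged 0.5 TPM or more, or 18.4%. The member UTRs were between 87 bases (Acot13) and 4805 bases (Acot4) long. A missing match says only that these letters are not in these UTRs.

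Acot13 was the most abundant member in every group. In WT normal livers it measured 184 ± 13.4 TPM (SD, n = 3), followed by Acot1 at 50.4 ± 5.54, Acot4 at 44.9 ± 6.07, Acot12 at 43.4 ± 3.70, Acot2 at 32.8 ± 11.3, Acot8 at 20.8 ± 1.58 and Acot3 at 18.5 ± 0.773 TPM. Acot9 at 1.04 ± 0.304 TPM and Acot6 at 0.274 ± 0.0852 TPM were far below these. Acot5 had 0 reads in 10 of 18 samples and 3 reads or fewer, the number a count of 0 allows, in 14 of them. Its highest value was 1.93 TPM from 24 reads in WT non-tumour 2.

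**Figure D1:**
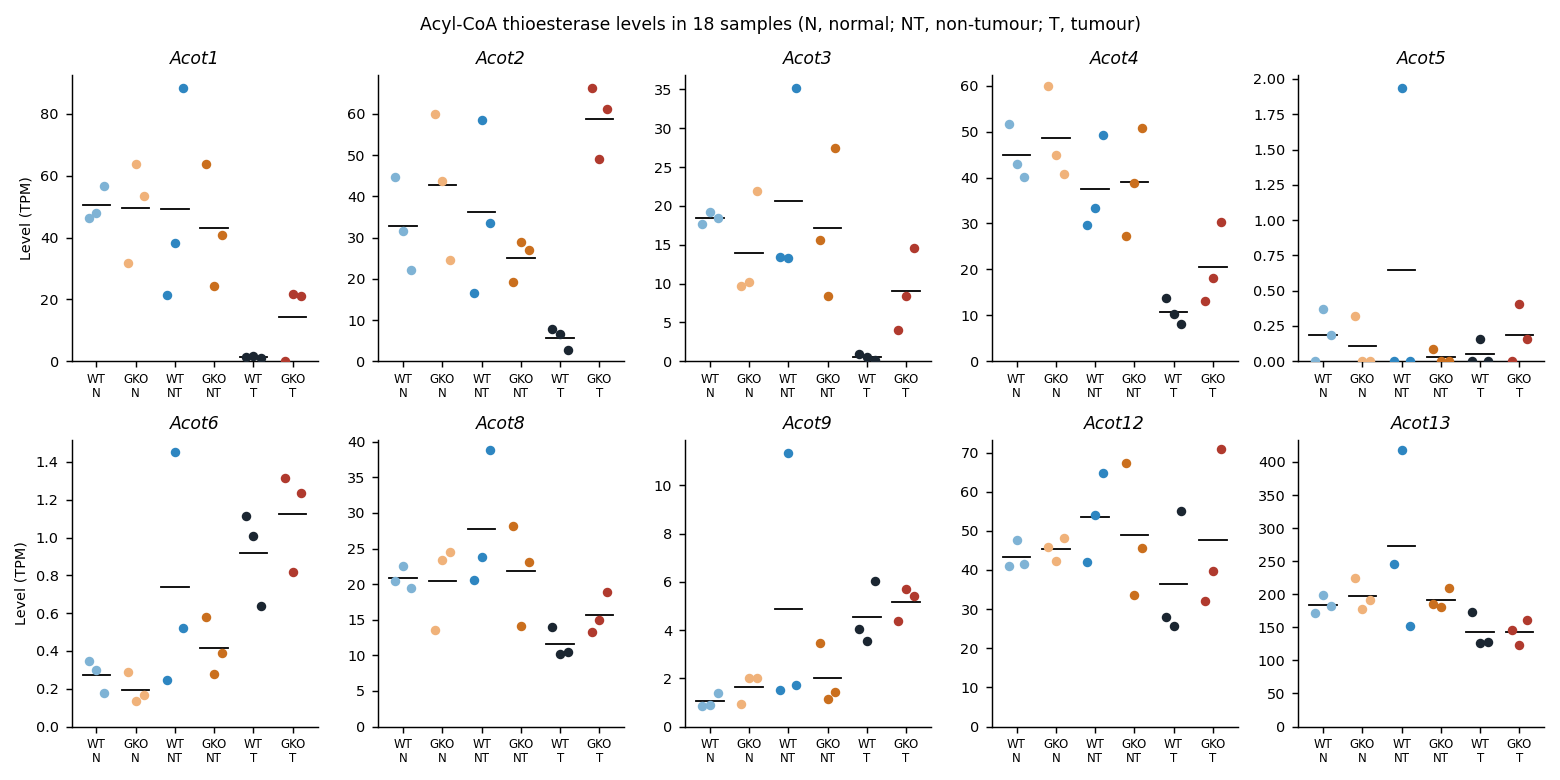
Each panel plots 1 member's level (vertical axis, TPM, from 0) in the 6 groups (horizontal axis; N, normal liver; NT, non-tumour liver; T, tumour); points are samples and bars are group means. The 3 WT tumours of Acot1, Acot2, Acot3 and Acot4 sit below every liver sample of those panels, and the 3 GKO tumours of Acot2 sit between 49.0 and 66.4 TPM.

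In the comparison that chose them, Acot2 and Acot3 were high in GKO tumours and low in WT tumours, and no other member separated these groups. Acot2, the mitochondrial enzyme, measured 7.82, 6.54 and 2.73 TPM in WT tumours, whereas GKO tumours gave 66.4, 49.0 and 61.2 TPM. Every GKO tumour was above every WT tumour, with means 10.3-fold apart and a log2 difference of 3.24 with a standard error of 0.35. Acot3, a peroxisomal enzyme, measured 0.950, 0.567 and 0.132 TPM in WT tumours, whereas GKO tumours gave 4.0, 8.43 and 14.5 TPM. Its groups did not overlap either, and the log2 difference was 2.58 (SE 0.43); with a pseudocount of 0.1 in place of 1 it was 3.87, since the WT tumour values rested on 27, 16 and 4 reads.

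Acot1 did not follow Acot2 in all GKO tumours. It measured 1.23, 1.55 and 1.16 TPM in WT tumours, and 0.138, 21.9 and 21.3 TPM were found in GKO tumours. GKO tumours 2 and 3 were above the WT tumours and GKO tumour 1, with 5 reads, was below all of them, so the groups overlapped; the log2 difference was 1.85 (SE 1.10), and 3.29 without GKO tumour 1. For Acot4 the values were 13.7, 10.3 and 8.11 TPM in WT tumours, against 13, 18.2 and 30.3 TPM with the knockout, which overlapped, with a log2 difference of 0.82 (SE 0.34). The summed level of the 6 clustered genes was 24.9, 20.1 and 12.8 TPM in WT tumours, whereas GKO tumours gave 84.9, 98.7 and 129 TPM. The summed level of the 6 fibroblast markers also separated these groups, at 35.6 to 56.9 TPM in WT tumours and 67.8 to 154 TPM in GKO tumours, with 5 of 6 above 1 TPM and 0 listed at 0 in each group. Its part in the levels of Acot2 and Acot3 was not tested.

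Outside the cluster the members were close between the tumour genotypes, and so was Acot6 within it. The log2 differences were 0.41 (SE 0.23) for Acot8, 0.38 (SE 0.40) for Acot12, 0.17 (SE 0.24) for Acot9 and 0.01 (SE 0.23) for Acot13. For the clustered Acot6 it was 0.15 (SE 0.21). The family genes Acot7, Acot10 and Acot11 were not among the members. Acot7 did not overlap either, at 15.4 to 26.1 TPM in GKO tumours and 10.6 to 14.3 TPM in WT tumours. Acot11 overlapped, at 0.101 to 1.27 TPM and 0.449 to 3.00 TPM, and Acot10 had no read in the tumours. All 9 members above the filter of a mean of 0.5 TPM were positive, of which Acot13 turned to -0.04 when each sample was centred on its median. Groups that did not overlap, as for Acot2 and Acot3, occurred in 9.88% of the 13964 genes in the higher direction and in 4.78% in the lower direction. The number of members whose groups did not overlap was 2, all of them higher. It was 4 without WT tumour 1 or WT tumour 3, 5 without GKO tumour 1 and 3 without GKO tumour 2, where 12.9%, 22.9%, 15.8% and 19.9% of all genes were higher without overlap.

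In WT mice, the mRNA of Acot1 to Acot4 was far lower in tumours than in livers, and Acot1 and Acot4 passed the test. Acot1 measured 46.4, 48.1 and 56.7 TPM in normal livers and 21.5, 38.3 and 88.4 TPM in non-tumour livers, against 1.16 to 1.55 TPM in the tumours. The tumours lay below every liver sample. Acot1 was lower in tumours than in non-tumour livers by a log2 fold change of -4.22 (SE 0.48, adjusted p = 0.00613), a 37.5-fold difference of the means, and than in normal livers by -4.47 (SE 0.17, adjusted p = 5.77e-05). These adjusted p-values came from limma over all genes tested, and both comparisons use the same 3 tumours. After Acot1 and Acot2 were added, the difference was -3.35 against non-tumour and -3.46 against normal livers. The sum holds Acot2, so it is a description with no p.

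Acot4, which prefers dicarboxylic acyl-CoA, was lower as well, by less. It measured 51.7, 42.9 and 40.0 TPM in WT normal livers and 29.7, 33.4 and 49.2 TPM in WT non-tumour livers, all above the 8.11 to 13.7 TPM of the WT tumours. The log2 fold change was -1.71 (SE 0.29, adjusted p = 0.0255) against non-tumour livers and -1.99 (SE 0.23, adjusted p = 0.00218) against normal livers. The call against non-tumour livers was lost without WT non-tumour 1 or 3 or WT tumour 1 or 2, at adjusted p between 0.0638 and 0.117, which left 1 member called.

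Acot2 and Acot3 are described in these comparisons, since the same WT tumours chose them. Acot2 was at 44.7, 31.5 and 22.2 TPM in WT normal livers and 16.6, 58.4 and 33.6 TPM in WT non-tumour livers, above the 2.73 to 7.82 TPM of the tumours, with log2 differences of -2.37 (SE 0.39) and -2.40 (SE 0.51). Acot3 was at 17.7, 19.3 and 18.4 TPM in WT normal livers and 13.4, 13.3 and 35.2 TPM in WT non-tumour livers. Against tumour values that were all under 1 TPM, its log2 differences were -3.69 (SE 0.22) and -3.69 (SE 0.42).

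Of the members outside the cluster, the peroxisomal Acot8 measured 20.5, 22.5 and 19.4 TPM in WT normal livers, 20.5, 23.8 and 38.8 TPM in WT non-tumour livers and 14.0, 10.2 and 10.5 TPM in WT tumours. It was lower in tumours than in normal livers (-0.81, SE 0.18, adjusted p = 0.0203), a call lost without WT normal 1, WT normal 2 or WT tumour 2 at adjusted p between 0.0692 and 0.0776, and also with no filter on low values (0.0732) and with the replicate block (0.0598). Against non-tumour livers the difference of -1.15 (SE 0.29) had an adjusted p of 0.0842. Acot9, a mitochondrial thioesterase, went the other way. It measured 0.842, 0.891 and 1.39 TPM in WT normal livers and 4.04, 3.53 and 6.03 TPM in WT tumours, and was higher in the tumours by 1.42 (SE 0.23, adjusted p = 0.00665).

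The non-tumour livers of WT mice gave 1.5, 11.4 and 1.73 TPM for Acot9, and the high value was WT non-tumour 2. The difference of tumours from non-tumour livers was 0.31 (SE 0.61, adjusted p = 0.838), and 1.06 (adjusted p = 0.0764) without that library. The same library held the highest levels of Acot5, Acot6 and Acot13. Acot12 and Acot13 showed no called difference between WT tumours and either liver group; Acot13 was at 126 to 173 TPM in tumours and 172 to 199 TPM in normal livers, a difference of -0.38 that became -0.77 (adjusted p = 0.0309) after median centring.

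By count, limma called 2 of the 7 members tested in WT tumours against WT non-tumours, both lower, where 2.07% of 14003 genes were called lower and 2.16% higher. Against WT normal livers it called 3 of 7 lower and 1 higher, beside 6.33% of 13644 genes lower and 21.2% higher. The 7 include Acot6, which passed the filter there only through the tumours and was not called. The median log2 fold change of the 9 members above the filter was -1.15 and -0.81 in these comparisons, and that of all genes was -0.02 and 0.29. Tumours held more of the hepatocyte marker mRNA than livers, as given above. The 6 macrophage markers summed to 25.7 to 48.6 TPM in WT tumours and 49.8 to 93.8 TPM in WT normal livers. In WT non-tumour livers they summed to 42.2 to 224 TPM, which overlapped the WT tumours. The part of either marker list in the TPM of the members was not tested. After median centring the split of all calls against normal livers went from 2887 higher and 863 lower to 1188 higher and 1705 lower; the directions of all 9 members were the same.

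Acot12, the cytosolic acetyl-CoA hydrolase, varied within the tumour groups more than between them. It measured 28.1, 25.8 and 55.0 TPM in WT tumours, while GKO tumours gave 32.1, 39.7 and 71.0 TPM, and the high tumour was the one numbered 3 in both. The 12 livers lay between 33.5 and 67.3 TPM and overlapped both. Against WT normal livers the log2 difference of -0.33 (SE 0.30, adjusted p = 0.441) was -0.66 (adjusted p = 0.0138) without WT tumour 3.

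**Figure D2:**
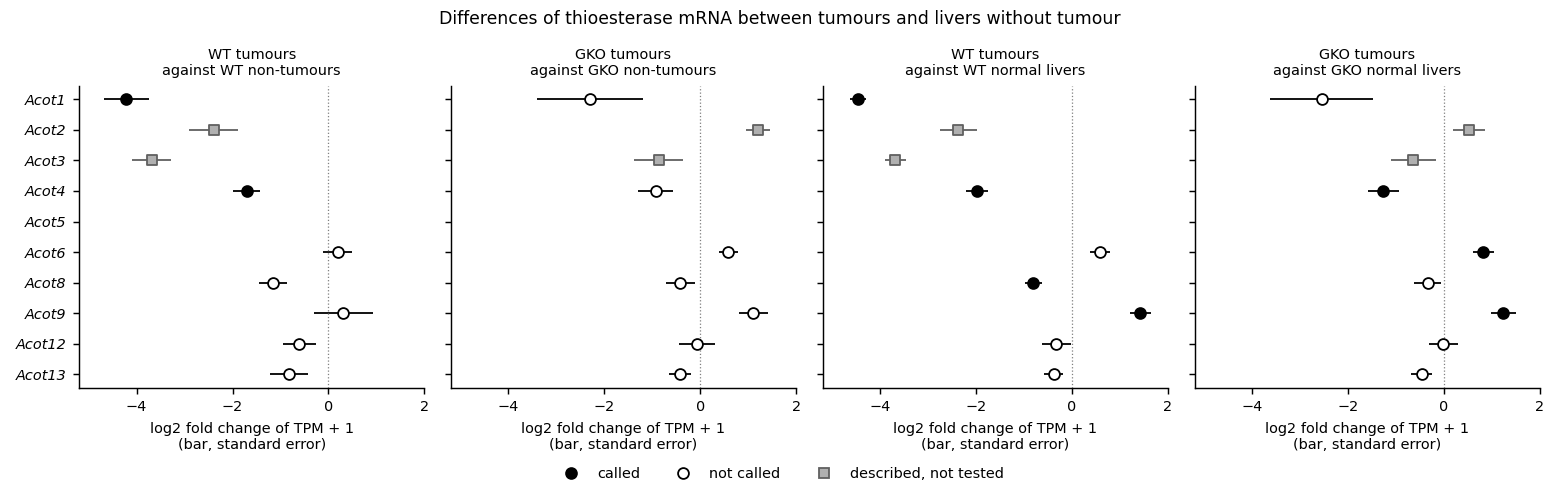
Log2 fold change of TPM + 1 (horizontal axis; bars, standard error) of 9 members in 4 comparisons of tumours with livers; filled circles passed an adjusted p of 0.05, open circles did not, and grey squares are Acot2 and Acot3, which were described and not tested. Acot1 lies at -4.22 and -4.47 in the WT panels, and Acot2 lies left of 0 in the WT panels and right of 0 in the GKO panels.

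In GKO mice the summed level of the clustered genes was 104 ± 22.4 TPM in tumours and 125 ± 22.9 TPM in non-tumour livers (SD, n = 3), and Acot2 made up more of it. Acot2 measured 60.1, 43.8 and 24.6 TPM in GKO normal livers, 19.2, 28.9 and 26.9 TPM in GKO non-tumour livers and 49.0 to 66.4 TPM in GKO tumours. The tumours lay above all non-tumour livers and overlapped the normal livers. As a description, the log2 difference was 1.21 (SE 0.25) against non-tumour and 0.53 (SE 0.33) against normal livers. Acot3 was at 9.71, 10.2 and 21.9 TPM in GKO normal and 15.7, 8.35 and 27.5 TPM in GKO non-tumour livers, and the tumours at 4.0, 8.43 and 14.5 TPM overlapped both, with log2 differences of -0.64 (SE 0.46) and -0.87 (SE 0.52).

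Acot1 measured 31.9, 63.7 and 53.5 TPM in GKO normal livers and 63.8, 24.3 and 40.7 TPM in GKO non-tumour livers. All GKO tumours were below all of these, GKO tumours 2 and 3 by a few TPM of the lowest liver. The log2 difference of -2.30 (SE 1.11, adjusted p = 0.197) against non-tumour livers and of -2.55 (SE 1.07, adjusted p = 0.127) against normal livers did not pass the test, and both were nearer 0 without GKO tumour 1, at -0.86 and -1.11. With Acot1 and Acot2 added the difference from non-tumour livers was 0.12, also as a description. GKO tumours 2 and 3, which held the Acot1 mRNA, also had a summed level of the 5 cholangiocyte markers of 959 and 549 TPM, against 37.6 TPM in GKO tumour 1 and 22.2 to 92.2 TPM in all other samples. That sum was mostly Spp1 at 934 and 536 TPM, named after its values were seen. Its part in the result was not tested.

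Acot4 measured 59.8, 45.0 and 40.7 TPM in GKO normal livers and 27.2, 38.7 and 50.8 TPM in GKO non-tumour livers, and the GKO tumours at 13, 18.2 and 30.3 TPM were below all normal livers and overlapped the non-tumour livers. It was lower in tumours than in normal livers (-1.27, SE 0.32, adjusted p = 0.0328), and this call was lost without any one of the GKO normal livers or without GKO tumour 1 or 2, at adjusted p between 0.0624 and 0.0936. The difference from non-tumour livers was -0.93 (SE 0.36, adjusted p = 0.128). Acot9 measured 0.915, 2.02 and 2.02 TPM in GKO normal livers and 4.38, 5.70 and 5.41 TPM in GKO tumours, which did not overlap. Its log2 fold change was 1.24 (SE 0.26, adjusted p = 0.0170), and 0.90 (adjusted p = 0.0782) after median centring. Against the GKO non-tumour livers, at 3.48, 1.12 and 1.42 TPM, the difference was 1.11 (SE 0.31, adjusted p = 0.0566), and 1.44 (adjusted p = 0.0224) without GKO non-tumour 1.

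Acot6 measured 0.286, 0.135 and 0.165 TPM in GKO normal livers and 1.32, 0.820 and 1.23 TPM, from 43 to 78 reads, in GKO tumours. It was called higher (0.82, SE 0.22, adjusted p = 0.0384), but it passed the filter on low values only through the tumours, so the call is a description, and it was lost without any one of the normal livers or without GKO tumour 1 or 3, at adjusted p between 0.0700 and 0.125. After median centring its difference was 0.48 (adjusted p = 0.165), and the call was also lost after quantile normalization, with no filter and with the replicate block. In WT mice the values were 0.344, 0.298 and 0.179 TPM in normal livers and 1.11, 1.01 and 0.636 TPM in tumours. The difference of 0.58 (SE 0.20) was 0.20 after median centring. There too it passed the filter only through the tumours, so the difference is a description. Acot8, Acot12 and Acot13 had no called difference between GKO tumours and livers, with log2 differences between -0.47 and -0.01; the value of Acot13 against normal livers, -0.47, became -0.81 (adjusted p = 0.0369) after median centring.

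By count, with Acot6 left aside, 1 of 6 members tested was called lower and 1 higher in GKO tumours against GKO normal livers, where 3.93% of 13928 genes were lower and 16.2% higher. Without GKO normal 1, 2 or 3 or GKO tumour 1 or 2 the call that was lower was lost, and after median centring 2 of 6 were called lower and 0 higher. The call that was higher was also lost after quantile normalization, with all 18 samples in one fit and with voom. Against GKO non-tumour livers limma called 0 of 7, and voom on the recovered reads called 0, where 3.97% of 14092 genes were called lower and 7.75% higher. At an unadjusted limma p under 0.05 were Acot4 and Acot9, and 31.7% of all genes. Acot6 was there too, but it passed the filter only through the tumours and is a description. After median centring the splits of all calls went from 2255 higher and 547 lower to 851 and 1053 against normal livers, and from 1092 higher and 560 lower to 777 and 990 against non-tumour livers. The medians of all genes were 0.31 and 0.20 in these comparisons.

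The mixture of clustered transcripts also differed between samples. Acot1 made up 28.8% to 41.2% of the cluster's summed level in WT normal livers and 19.7% to 39.1% in GKO normal livers. It made up 4.97%, 7.71% and 9.05% in WT tumours and 0.163%, 22.2% and 16.5% in GKO tumours. Acot2 made up 78.2%, 49.7% and 47.6% in GKO tumours, above the 15.2% to 39.8% of all other samples, and Acot4 made up 51.2% to 63.5% in WT tumours, above the 15.3% to 38.5% elsewhere. Acot4 was thus the leading clustered transcript of every WT tumour and Acot2 that of every GKO tumour. For each 100 TPM of Acot2 there were 53.1 to 333 TPM of Acot1 in the 12 livers without tumour and 0.208 to 44.6 TPM in the 6 tumours, so in all 6 tumours Acot1 was below Acot2.

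**Figure D3:**
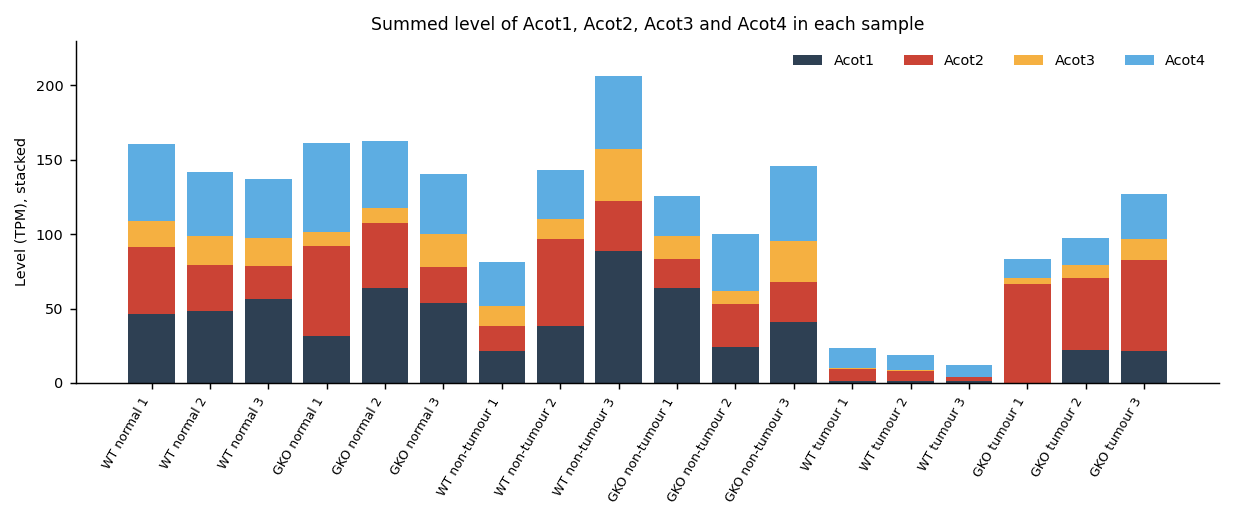
Stacked bars show the level (vertical axis, TPM, from 0) of Acot1, Acot2, Acot3 and Acot4 in each of the 18 samples. The WT tumour bars are the lowest, and the Acot2 part fills most of the bar of GKO tumour 1.

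**Figure D4:**
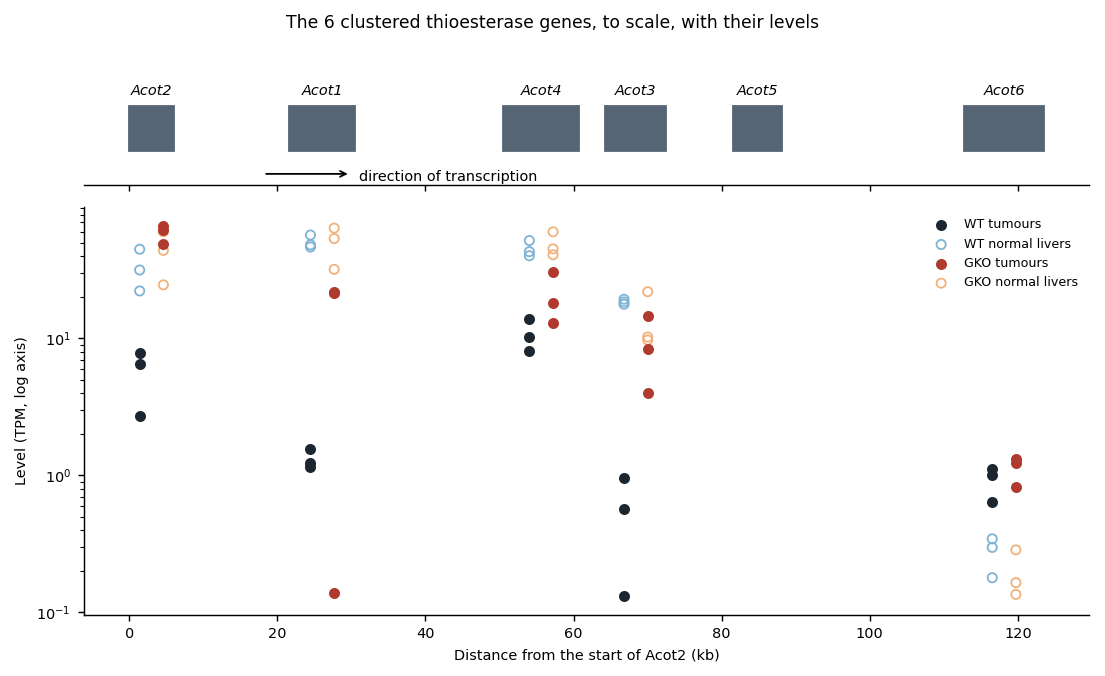
The upper panel draws the 6 clustered genes to scale along the distance from the start of Acot2 (kb); the lower panel gives, on a log axis in TPM, the level of each of these genes except Acot5 in tumours (filled) and normal livers (open) of WT and GKO mice. The neighbours Acot2 and Acot1 part in GKO tumour 1, at 66.4 and 0.138 TPM.

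In livers without tumour no member passed the test by treatment or by genotype, and almost no gene did, so the counts say nothing particular about the members. With limma, 0 of 9 members were called in WT non-tumours against WT normal livers, where 0.00744% of 13440 genes were called and 3282 had an unadjusted p under 0.05, and 0 of 8 in GKO non-tumours against GKO normal livers, where 0% of 13530 genes were called and 703 had an unadjusted p under 0.05. GKO against WT gave 0 of 9 in non-tumours and 0 of 8 in normal livers, with 0% of 13768 genes (799 at an unadjusted p under 0.05) and 0% of 13099 genes (519) called. The difference between the genotypes in the response to DEN was called for 0 of 8 members, with 0% of 13488 genes called and 830 at an unadjusted p under 0.05. In these 5 comparisons 0 members had an unadjusted p under 0.05, and voom called 0.

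The log2 difference of Acot2 between GKO and WT, which was 3.24 in tumours, was -0.37 (SE 0.44, adjusted p = 0.739) in non-tumour livers and 0.34 (SE 0.37, adjusted p = 0.999) in normal livers. For Acot3 the values were -0.25 (SE 0.52, adjusted p = 0.858) and -0.47 (SE 0.30, adjusted p = 0.999). The non-tumour values rested on single livers: without WT non-tumour 2 that of Acot2 was 0.05, and without WT non-tumour 3 or GKO non-tumour 2 that of Acot3 was 0.20 or 0.16. The member furthest from 0 in livers was Acot9 at 1.11 (SE 0.59, adjusted p = 0.273) in WT non-tumour against normal livers, where its means were 4.67-fold apart, the groups did not overlap and WT non-tumour 2 held the high value. Acot6 was 2.7-fold higher by the means in the same comparison, with overlap.

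Ranked by group mean, the levels of a member mostly overlapped between neighbouring groups. For Acot1 the only gap between neighbours in the order was between GKO non-tumours and GKO tumours. WT non-tumour 1 at 21.5 TPM lay just below GKO tumour 2 at 21.9 TPM. For Acot2 the gap was between GKO non-tumours and WT tumours, and for Acot3 between GKO tumours and WT tumours. For Acot9 the gap was between WT tumours and GKO non-tumours and for Acot13 between WT normal livers and GKO tumours. Acot4, Acot5, Acot6, Acot8 and Acot12 had no gap between neighbouring groups.

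The genes whose pattern over the 18 samples was most like that of Acot1 were all fatty acid hydroxylases of the Cyp4a family. Pearson r on log2(TPM + 1) was 0.97 for Cyp4a10, 0.96 for Cyp4a12b and 0.94 for Cyp4a14, among the 11897 genes that averaged 1 TPM or more. These points share tissue and tumour status, and over the 12 livers without tumour r was 0.44, 0.42 and 0.48. Cyp4a10 measured 11.0, 9.35 and 10.5 TPM in WT tumours, and GKO tumours gave 2.72, 301 and 685 TPM, against 315 to 1350 TPM in the 12 livers. GKO tumour 1 was the lowest sample for Cyp4a10 as it was for Acot1. Ppara, the receptor's own gene, was at 5.01, 5.40 and 18.3 TPM in WT tumours, while GKO tumours gave 11.5, 13.1 and 34.0 TPM.

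**Figure D5:**
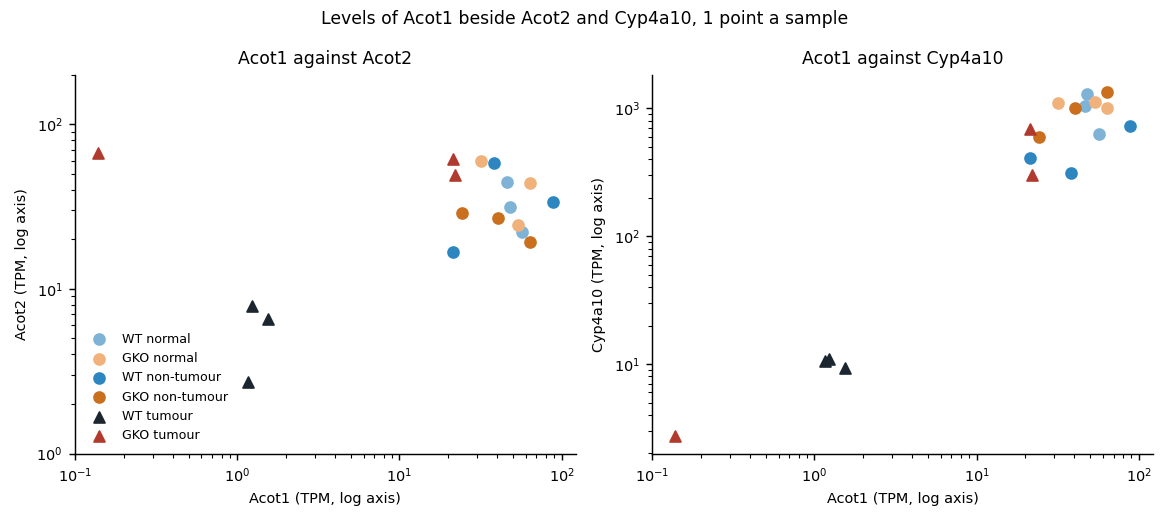
Both panels plot 1 point a sample on log axes in TPM, Acot1 (horizontal) against Acot2 (left) and against Cyp4a10 (right); triangles are tumours and circles livers without tumour. GKO tumour 1 is at the low end of Acot1 and Cyp4a10 (0.138 and 2.72 TPM) and at the high end of Acot2 (66.4 TPM).

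The other members had other partners by the same measure. Acot4 was most like Prlr, the prolactin receptor (r = 0.95), Ddhd2 (0.93) and the carnitine transporter Slc22a5 (0.92), and Acot3 like the carboxylesterase Ces1d (0.91), Slc22a5 (0.91) and Smarcd2 (0.90). In the 12 livers without tumour r was 0.59, 0.68 and 0.33 for those of Acot4 and 0.63, 0.60 and 0.54 for those of Acot3. Acot9 was most like the cytoskeletal actin Actg1 (0.94), Anxa5 (0.94) and Fkbp1a (0.93). Over the 12 livers r with these genes was 0.95, 0.92 and 0.90, a range of Acot9 that WT non-tumour 2 extends from 3.48 to 11.4 TPM, and 0 of the 3 were the most like genes there. Acot12 was most like Etfdh, which passes electrons from fatty acid oxidation to the respiratory chain (0.93), Marc1 (0.92) and Zbtb44 (0.92), and Acot2 less closely like Tst (0.80), Bnip3l (0.80) and Mrm3 (0.79). In the 12 livers r was 0.90, 0.78 and 0.80 for those of Acot12 and 0.03, 0.73 and 0.59 for those of Acot2. Within the family, r over the 18 samples was 0.89 for Acot1 with Acot3 and 0.88 with Acot4, but 0.48 with Acot2, its nearest relative in sequence. Over the 12 livers without tumour the values for Acot1 were 0.59 with Acot3, 0.16 with Acot4 and 0.04 with Acot2.

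Fatty acid oxidation genes were mostly below 0 in WT tumours, although few passed the test. Of 23 peroxisomal oxidation genes, 21 were below 0 in WT tumours against WT non-tumours and 4 were called lower, with a median log2 fold change of -1.41, against -0.02 over all genes. Of all genes, 2.07% were called lower and 2.16% higher there, and 3.97% and 7.75% in GKO tumours against GKO non-tumours. Among the 4 called in WT tumours, the thiolase Acaa1b (-3.69, SE 0.45, adjusted p = 0.00827) and Hacl1 of alpha oxidation (-2.59, SE 0.22, adjusted p = 0.00228) fell furthest. In GKO tumours against GKO non-tumours the median was -0.12, against 0.20 over all genes, and 1 gene was called in each direction: Abcd2, a transporter of very long chain acyl-CoA, was higher (3.34, SE 0.30, adjusted p = 0.00406) and Hacl1 was lower (-1.45, SE 0.35, adjusted p = 0.0394).

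Of 20 PPAR alpha target genes, 2 were called lower in WT tumours against non-tumours, Cyp4a10 (-5.34, SE 0.33, adjusted p = 0.00112) and Acadm of mitochondrial oxidation (-1.24, SE 0.25, adjusted p = 0.0419). The median was -1.41, against -0.02 over all genes, of which 2.07% were called lower. In GKO tumours 2 were called higher and 1 lower, where 7.75% of all genes were called higher and 3.97% lower. The median was -0.11, against 0.20 over all genes. Cyp4a31 (2.59, SE 0.52, adjusted p = 0.0249) and Cpt1a (1.67, SE 0.40, adjusted p = 0.0394), which admits fatty acids to mitochondria, were higher, and Mogat1 (-1.02, SE 0.19, adjusted p = 0.0204) was lower. Cyp4a10 was also below 0 in GKO tumours but not called by limma (-3.35, SE 1.74, adjusted p = 0.224). Cyp4a14 was not called by limma in WT tumours (-4.90, SE 1.07, adjusted p = 0.0568) or GKO tumours (-4.91, SE 1.57, adjusted p = 0.0832). Of 17 mitochondrial oxidation genes tested, 16 were below 0 in WT tumours and 6 in GKO tumours. Cpt2 was called lower in both (-1.36, SE 0.24, adjusted p = 0.0310, and -1.03, SE 0.26, adjusted p = 0.0463).

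The acyl-CoA synthetases oppose the thioesterases. Among 14 tested in WT tumours against non-tumours, 3 were called lower, among them Acsm5 (-2.09, SE 0.19, adjusted p = 0.00294) and the bile acid ligase Slc27a5 (-1.64, SE 0.28, adjusted p = 0.0276), and 1 higher, Acsl4 (2.37, SE 0.39, adjusted p = 0.0238). In GKO tumours 3 were called higher, Acsl4 (2.56, SE 0.34, adjusted p = 0.00833) and Acsl5 (2.54, SE 0.28, adjusted p = 0.00506) furthest, and 0 lower. Of the other thioesterases, 1 of 11 tested was called in WT tumours against non-tumours, Baat, a bile acid conjugating enzyme related to the clustered Acot genes, which was lower (-1.75, SE 0.23, adjusted p = 0.0104). In GKO tumours the lysosomal Ppt1 (1.45, SE 0.31, adjusted p = 0.0304) and Them6 (1.39, SE 0.22, adjusted p = 0.0127) were higher and Them7 (-1.28, SE 0.28, adjusted p = 0.0319) was lower. Beside these counts, 2.16% of all genes were called higher and 2.07% lower in WT tumours against non-tumours. For GKO tumours against non-tumours the shares were 7.75% and 3.97%.

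PPAR alpha binds repeats of the hexamer AGGTCA as a partner of another receptor, so this motif was looked for on both strands of the promoters, from 250 bases before to 50 bases after the gene start (RefSeq, GRCm38.p6). The table held 8 of the 10 members, without Acot6 and Acot13. AGGTCA occurred in 4 of the 8, Acot3, Acot4, Acot5 and Acot12, and in 16.3% of 32851 promoters. The hexamer repeated with 1 base between the copies occurred in 0 members and 13 promoters, 0.0396%. Stretches of 30 bases around the match are shown on the plus strand for the members with measurable levels, with the match in capitals, at chr12:84038354-84038383 for Acot4, chr12:84052150-84052179 for Acot3 and chr13:91741399-91741428 for Acot12. All 3 read TGACCT, the hexamer on the minus strand.
Acot4: agccccgaagcaTGACCTttggccggtctg
Acot3: gttattagctctTGACCTtgtctgtctgct
Acot12: ctcgtaggacccTGACCTctcacctcctaa
A match is a description of the sequence and not a binding site. Acot1 and Acot2 had none in this window.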

How the data were processed

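RNA-seq of 18 mouse liver and tumour samples was read from a table of TPM values. Per the methods, the authors mapped reads to mm10 with STAR 2.7.3a and counted them with featureCounts 2.0.0; the gene annotation and the TPM calculation are not given in the sources used here. The deposited TPM sum to 1000000 in each sample, so a member's value depends on all other genes. Multiplying TPM by exonic length (GENCODE M21, matched for 54809 of 54838 identifiers) gave whole reads within 0.02 for 98.0% to 98.7% of values up to 30 reads. Counting error alone limits the lowest values: 3 reads is the limit a count of 0 allows. Groups came from the labels, and no sample was left out.

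limma 3.58.1 (R 4.3.3, eBayes with trend) was fitted to log2(TPM + 1) of the samples of each comparison, for genes that averaged 0.5 TPM or more, with Benjamini-Hochberg adjustment over all genes tested and calls under 0.05; this scale understates changes of low genes. Fits were tested on simulated data. Acot2 and Acot3 were not tested in comparisons that include tumours, and no member was tested between the tumour genotypes. No main fit took samples as paired, and a block of same-numbered samples was run as an alternative in every comparison. Only between GKO and WT tumours, from mice of different genotypes, did every same-numbered pair correlate above 0.1. The correlations of their deviations from the group means were 0.101, 0.120 and 0.197, which comes from the data and not from the labels. With the block the standard error between these tumours was 0.32 for Acot2, 0.49 for Acot3, 0.92 for Acot1 and 0.39 for Acot4. Alternatives were the pseudocount, the filter, scaling, the samples in the fit, voom on the recovered reads, the replicate block, leaving out each sample, averaging WT tumours 1 and 2 and adding Acot1 to Acot2. All 10 members were named in each comparison, with the 3 genes of highest r for 6 of them, the 2 called genes that rose and the 2 that fell furthest in each pathway list, and Ppara, Cyp4a10 and Cyp4a14. Acot7, Acot10 and Acot11 were named after their values were seen, as a description. Members and gene lists were chosen with earlier results of these data known. Sequences came from RefSeq tables; Python 3.11.15, numpy 2.4.6, pandas 2.3.3, Biopython 1.88 and matplotlib 3.10.9 were used.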

Additional observations from a re-analysis of the deposited data

Results flagged for a closer look

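Against the non-tumour livers of the same genotype, Acot2 moved in opposite directions in WT and GKO tumours. All 3 WT tumours were below all 3 WT non-tumour livers, with a log2 difference of -2.40, and all 3 GKO tumours were above all 3 GKO non-tumour livers, with a log2 difference of 1.21. Of all genes, 1941 of 14003 were lower without overlap in the WT comparison and 3617 of 14092 higher without overlap in the GKO comparison. The GKO tumours overlapped the GKO normal livers, with a log2 difference of 0.53 (SE 0.33). The difference between the genotypes was not tested, since it includes the tumours that chose Acot2.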

How the results depend on the processing

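No member turned direction under another scaling in the comparisons of tumours with livers. The count of called members in WT tumours against WT non-tumours, 2, was 1 with the replicate block and with WT tumours 1 and 2 averaged. It was 1 to 2 when single samples were left out. With Acot1 and Acot2 added, Acot4 stayed called, and the sum was left out of the count because it holds Acot2. In GKO tumours against GKO normal livers, the count of 3, which includes Acot6 and is 2 without it, was 1 at a minimum mean of 5 TPM, 1 after quantile normalization, 1 with the replicate block, and 1 to 2 with single samples left out. In GKO tumours against GKO non-tumours the count of 0 was 1 with all 18 samples in one fit, and 0 to 1 with single samples left out. Members that did not overlap between GKO and WT tumours numbered 1 at a minimum of 5 TPM, 4 with WT tumours 1 and 2 averaged, and 2 to 5 with single samples left out; 9.46%, 13.5% and 11.9% to 22.9% of all genes were then higher without overlap. For WT tumours against normal livers the range was 3 to 6, and 0 in the other comparisons under every alternative run. Without WT tumour 3 the former count includes Acot6, which is a description. Fewer samples or genes entered the left-out and filtered fits; the other causes were not tested.

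Acot1 in GKO tumours against GKO non-tumours turned to 0.12 with Acot1 and Acot2 added, by construction, and Acot2, 0.53 against GKO normal livers, to -0.32. With single samples left out, several values changed sign. Against WT non-tumours, Acot6 in WT tumours ranged from -0.0183 to 0.47 and Acot9 from -0.10 to 1.06. Acot12 in GKO tumours ranged from -0.39 to 0.19 against non-tumours and from -0.34 to 0.22 against normal livers. In GKO against WT non-tumours, Acot2 ranged from -0.82 to 0.0547 and Acot3 from -0.64 to 0.20. The genes most like a member changed most: at most 1 of 3 was shared with the ranking by Spearman's rho for each of 6 members, and 0 of 3 with the ranking over the 12 livers.

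Sample numbers were not taken as pairs in the main fits. In every comparison but GKO against WT tumours, the correlation of at least 1 same-numbered pair was below 0.1. In GKO tumours against GKO non-tumours the correlations were 0.124, 0.0690 and 0.0410, and 6 of 6 samples correlated best with their own number, a hint from the data and not the design. Over all genes the block took the calls from 592 to 361 in WT tumours against non-tumours, from 3750 to 2272 against normal livers, and from 2802 to 1614 in GKO tumours against normal livers; among counts of members it moved only those given above by over 1.5 times. Low reads limit Acot5, Acot6 and, in tumours, Acot1 and Acot3.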
